A study of Homo sapiens with 6 samples.

Results

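The contractile genes examined here are 10 genes that encode parts of the actomyosin apparatus of smooth muscle and of myofibroblasts: ACTA2, ACTG2, TAGLN, CNN1, CNN2, MYL9, TPM1, TPM2, CALD1 and LMOD1. They were chosen by symbol, as 10 of the 57232 genes in the expression table, and all 10 were tested, together with the other genes whose mean over the libraries reached 1 FPKM (10416 in all). The unit FPKM counts fragments per kilobase of a gene's length in a library brought to a common size. RNA was sequenced from IMR90 cells, a line of human fetal lung fibroblasts, infected with ARID1B cDNA in 3 libraries and with the empty vector alone in the other 3. ARID1B is a subunit of BAF, one of the SWI/SNF chromatin remodeling complexes, and its ectopic expression was used to ask how the complex controls senescence. Infection was at passage 13, puromycin selection ended on day 4 and harvest was on day 6 in every sample. In the labels the 2 groups differed in the cDNA alone. The values come from bulk RNA, in which fewer cells that express a gene and less RNA per cell cannot be told apart.

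When a fibroblast becomes contractile it assembles stress fibers, bundles of actin filaments pulled by myosin and anchored at focal adhesions. Smooth muscle actins form the filament, tropomyosins run along it, calponins, transgelin and caldesmon bind and steady it, leiomodin starts new filaments, and the regulatory myosin light chain switches the motor on once it is phosphorylated. Many of these genes are transcribed through serum response factor (SRF), which binds the CArG box in DNA with cofactors of the myocardin family, and TGF-beta and mechanical tension are the classical inducers in lung fibroblasts.

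The CArG box was looked for in the 250 bases before the transcription start of these genes (RefSeq sequences, GRCh38.p14, both strands, since the motif reads the same on either strand). A window was present for 8 of the 10 genes (13 windows, since some genes have several starts), and TAGLN and MYL9 had none. A full CArG box lay in the windows of ACTG2 and CNN2, and a box with 1 G or C among its inner bases lay in a window each of ACTA2 and CALD1. Over all 35116 windows, 1.16% held a full box and 5.96% a box with 1 inner G or C. The sequences of ACTA2, ACTG2 and CNN2 are shown because they carry these boxes upstream of both smooth muscle actins and of the one gene that was lower in all ARID1B libraries. Capitals mark the boxes, and each sequence is written 5′ to 3′ on the strand of the gene.
ACTA2, chr10:88952774-88953023, minus strand: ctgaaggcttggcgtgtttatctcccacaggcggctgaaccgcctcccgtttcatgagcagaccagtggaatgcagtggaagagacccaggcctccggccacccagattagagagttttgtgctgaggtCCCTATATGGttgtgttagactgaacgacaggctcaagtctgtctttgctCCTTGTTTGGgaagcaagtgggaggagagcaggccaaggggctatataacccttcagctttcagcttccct
ACTG2, chr2:73892758-73893007, plus strand: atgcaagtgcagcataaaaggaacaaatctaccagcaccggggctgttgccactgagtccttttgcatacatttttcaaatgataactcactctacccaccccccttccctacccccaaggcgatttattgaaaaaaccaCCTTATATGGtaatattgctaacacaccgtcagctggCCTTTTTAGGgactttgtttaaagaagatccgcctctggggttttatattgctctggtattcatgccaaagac
CNN2, chr19:1026358-1026607, plus strand: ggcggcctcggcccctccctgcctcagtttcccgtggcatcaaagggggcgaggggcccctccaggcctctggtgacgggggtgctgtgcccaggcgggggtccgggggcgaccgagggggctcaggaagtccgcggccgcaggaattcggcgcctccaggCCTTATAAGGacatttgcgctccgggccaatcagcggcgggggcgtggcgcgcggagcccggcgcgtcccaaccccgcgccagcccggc
In ACTA2 the boxes began 121 and 71 bases before the start, in ACTG2 110 and 73 bases before it and in CNN2 89 bases before it. The match is a description of letters and was not tested for binding.

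ARID1B itself stood between 21.0 and 32.5 FPKM in the libraries with the cDNA and between 1.31 and 2.29 FPKM in those with the vector (adjusted p = 0.0255 from limma), as the labels say. Library totals, worked out from the smallest steps between values, lay between 63386813 and 91924514 reads or fragments. The least covered contractile gene and library, LMOD1 in vector replicate 2, held 2903 of them. Vector replicate 2 stood apart, at 48.5 along the first principal component (63.8% of the variance), where the other 5 libraries lay between -20.0 and 3.63. Replicate 3 lay between replicates 1 and 2 of its group for 85% of the genes tested in the vector group and for 69.2% in the ARID1B group (9 and 5 of the 10 contractile genes), and whether it is an independent sample was not tested. Nothing in the labels says that the libraries come from separate cultures, although the study calls them biological replicates, so p-values measure the spread between these libraries.

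No contractile gene passed the test at an adjusted p under 0.05 (limma over all 10416 genes, Benjamini-Hochberg adjustment), where 0.0288% of all genes were higher and 0% lower with ARID1B. ACTG2, TPM1 and CALD1 nevertheless had all ARID1B libraries above all vector libraries, and CNN2 had them all below. These 4 of 10 genes stand beside 20.5% of all genes tested whose groups did not overlap (9.44% higher and 11.1% lower with ARID1B). The same 4 genes were those with an unadjusted p under 0.05 in limma, beside 4.64% of all genes higher and 5.94% lower. For a single gene an exact two-sided permutation test over the libraries gives p = 0.1 in these 4 cases, the smallest that 3 against 3 libraries allow. The median log2 change of the 10 genes was 0.26, against -0.015 over all genes tested, with 7 changes above 0 and 3 below, where 47.6% of all genes lay above 0.

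**Figure D1:**
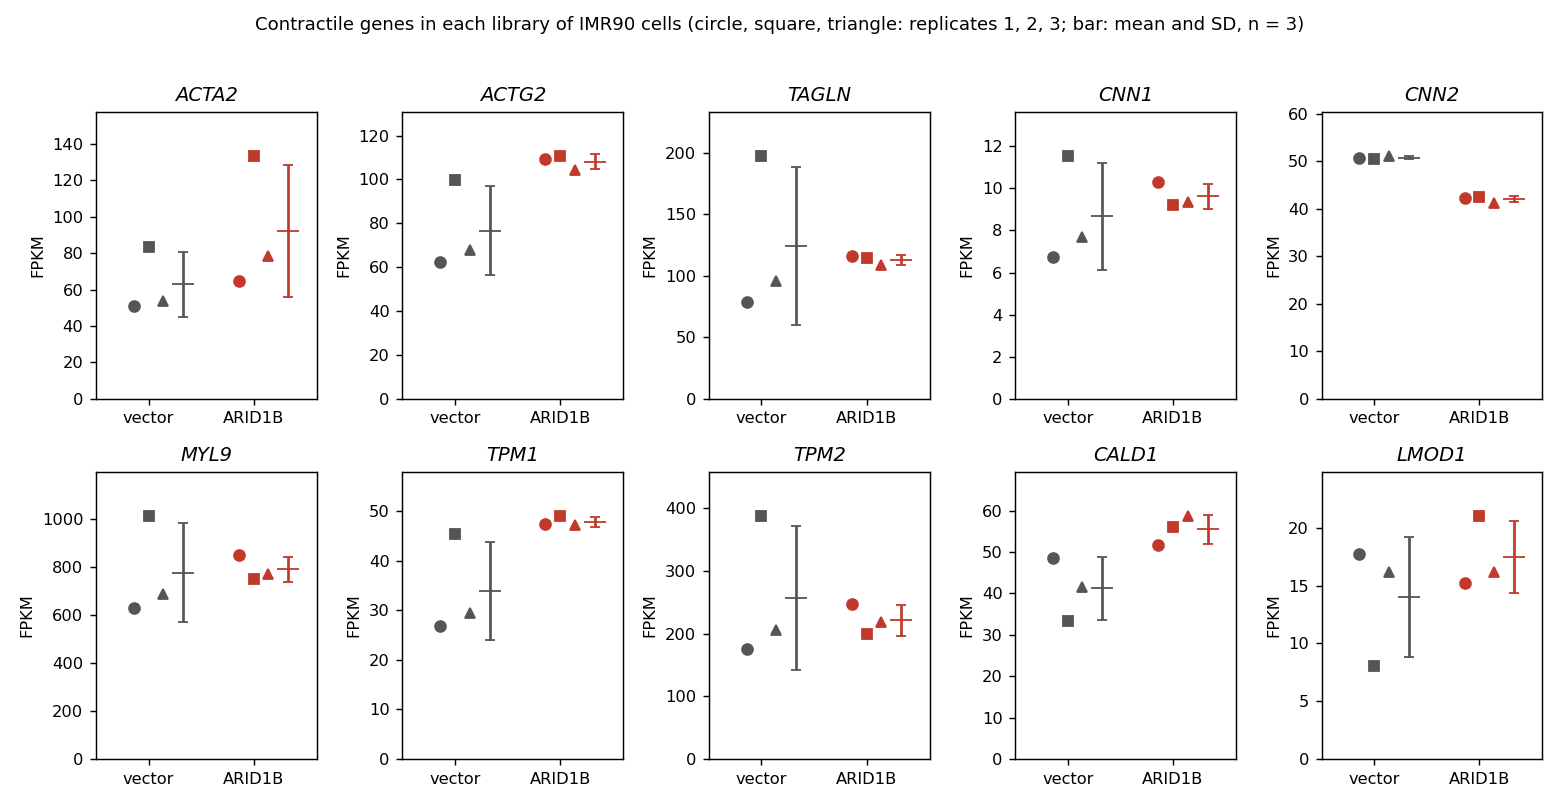
FPKM of the 10 contractile genes (linear vertical axes from 0) in each library (vector in gray, ARID1B in red), where circles, squares and triangles are replicates 1, 2 and 3 and the bars give the mean and SD of 3 libraries. ACTG2, TPM1 and CALD1 lie higher and CNN2 lower in all ARID1B libraries, and the square of the vector group is the highest of the 6 libraries for TAGLN, TPM2, MYL9 and CNN1.

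Both smooth muscle actins had higher mean levels with ARID1B, and only for ACTG2 did the libraries separate. ACTG2 (ENSG00000163017), the gamma actin of enteric smooth muscle, stood at 62.4, 99.9 and 67.7 FPKM with the vector and at 109, 111 and 104 FPKM with ARID1B, in the order of replicates 1, 2 and 3 as for every gene that follows. The ARID1B libraries lay close together and above all vector libraries, of which replicate 2 came nearest. Its log2 change was 0.52 (standard error 0.194, adjusted p = 0.429 from limma), from 76.7 ± 20.3 FPKM (SD, n = 3) to 108 ± 3.34 FPKM (SD, n = 3).

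ACTA2 (ENSG00000107796), the alpha smooth muscle actin used as the classical marker of myofibroblasts, stood at 51.1, 83.5 and 53.8 FPKM in the vector libraries and at 64.6, 134 and 78.5 FPKM in the ARID1B libraries. ARID1B replicate 2 was the highest of the 6, and ARID1B replicates 1 and 3 lay below vector replicate 2, so the groups overlapped. The log2 change was 0.51 (standard error 0.318, adjusted p = 0.620 from limma), from 62.8 ± 17.9 FPKM (SD, n = 3) to 92.2 ± 36.5 FPKM (SD, n = 3). It fell from 0.51 to 0.21 once ARID1B replicate 2 was left out. In that library mitochondrially encoded genes held 27.8% of the summed FPKM, against 16.3% to 20.9% in the other 5, and their part in the level of ACTA2 was not tested. The ratio of ACTG2 to ACTA2 was nearly constant in the vector libraries, from 1.2 to 1.26, and ran from 0.830 to 1.69 in the ARID1B libraries. No stretch of 50 bases was shared between the transcripts of ACTA2 and ACTG2, or between ACTA2 and the cytoplasmic actins ACTB and ACTG1 (GENCODE v29), although reads shorter than that could still match several actins. Exons of FAS on the opposite strand cover 12.8% of the exonic bases of ACTA2. FAS had a mean of 6.33 FPKM, and the strand setting used for counting is not given in the sources used here.

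Among the tropomyosins, the rod-shaped proteins that lie along the actin filament and decide which partners reach it, TPM1 had groups that did not overlap and TPM2 had groups that did. TPM1 (ENSG00000140416) stood at 26.9, 45.3 and 29.5 FPKM with the vector and at 47.4, 49.0 and 47.2 FPKM with ARID1B. As for ACTG2, the ARID1B libraries were tightly grouped and vector replicate 2 was the one vector library close to them. The log2 change of TPM1 was 0.52 (standard error 0.204, adjusted p = 0.448 from limma), from 33.9 ± 9.95 to 47.9 ± 1.0 FPKM (SD, n = 3 each). Muscle and nonmuscle isoforms of TPM1 come from one gene, and the table does not separate them.

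TPM2 (ENSG00000198467), the beta tropomyosin, stood at 176, 388 and 206 FPKM with the vector and at 247, 199 and 218 FPKM with ARID1B. Vector replicate 2 was the highest library by far, and ARID1B replicate 2 lay below vector replicate 3, so the groups overlapped. The log2 change of TPM2 was -0.13 (standard error 0.304, adjusted p = 0.883 from limma). Without vector replicate 2 it turned to 0.21, and with GC content and gene length corrected for it turned to 0.05. Within each library the ratio of TPM1 to TPM2, compared after the values had been seen, was 0.153, 0.117 and 0.144 with the vector and 0.192, 0.247 and 0.216 with ARID1B. The ratio was thus above all vector values in the whole ARID1B group. The longest transcript of TPM1 has a GC content of 45.9% and that of TPM2 one of 55.3%. With GC content and length corrected for, the log2 changes were 0.45 for TPM1 and 0.05 for TPM2, and the difference between the genes was not tested.

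CNN2 was the steadiest of the 10 genes. CNN2 (ENSG00000064666), a calponin found in many cell types besides smooth muscle, stood at 50.6, 50.5 and 51.2 FPKM with the vector and at 42.3, 42.6 and 41.3 FPKM with ARID1B. All ARID1B libraries were lower than all vector libraries, and vector replicate 2 did not stand apart for this gene. The log2 change was -0.27 (standard error 0.0981, adjusted p = 0.425 from limma), from 50.7 ± 0.355 to 42.0 ± 0.687 FPKM (SD, n = 3 each). The standard error of limma also draws on the spread of other genes at the same level. After the GC and length correction the change was -0.11.

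CNN1 (ENSG00000130176), the calponin of differentiated smooth muscle, had overlapping groups. It stood at 6.76, 11.6 and 7.69 FPKM with the vector and at 10.3, 9.20 and 9.36 FPKM with ARID1B, with vector replicate 2 above all other libraries and the rest of the vector group below all ARID1B libraries. Its log2 change was 0.17 (standard error 0.193, adjusted p = 0.772 from limma). It ran from 0.02 without vector replicate 1 to 0.37 without vector replicate 2, and was 0.40 after the GC and length correction (adjusted p = 0.242 from limma). The ratio of CNN1 to CNN2 within a library was 0.134, 0.229 and 0.15 with the vector and 0.244, 0.216 and 0.227 with ARID1B, and the groups overlapped through vector replicate 2.

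TAGLN (ENSG00000149591), which encodes transgelin or SM22, an early marker of smooth muscle differentiation, had the largest coefficient of variation of the 10 genes in the vector group, 51.9%. It stood at 78.5, 198 and 96.1 FPKM with the vector and at 116, 114 and 108 FPKM with ARID1B. Vector replicate 2 held 2.26 times the mean of vector replicates 1 and 3, and the ARID1B libraries lay between. The log2 change was -0.016 (standard error 0.335, adjusted p = 0.988 from limma). This value turned to 0.38 without vector replicate 2 and to 0.11 under quantile normalization or the GC and length correction. CALD1 (ENSG00000122786), which encodes caldesmon, an inhibitor of actomyosin that calmodulin releases, went the other way in that library. It stood at 48.6, 33.4 and 41.6 FPKM with the vector and at 51.7, 56.1 and 58.7 FPKM with ARID1B. All ARID1B libraries were above all vector libraries, with vector replicate 1 near ARID1B replicate 1 and vector replicate 2 the lowest. The log2 change of CALD1 was 0.44 (standard error 0.161, adjusted p = 0.426 from limma), and 0.30 without vector replicate 2. The ratio of TAGLN to CALD1 reached 5.91 in vector replicate 2 and ran from 1.61 to 2.31 in the other 5 libraries. Exons of PCSK7 on the opposite strand, a gene with a mean of 2.41 FPKM, cover 11.4% of the exonic bases of TAGLN.

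MYL9 (ENSG00000101335), the regulatory light chain of smooth muscle myosin, stood at 629, 1011 and 684 FPKM with the vector and at 847, 748 and 770 FPKM with ARID1B. Again vector replicate 2 was the highest library, and the other vector libraries were the lowest. Its log2 change was 0.055 (standard error 0.206, adjusted p = 0.930 from limma). LMOD1 (ENSG00000163431), the leiomodin of smooth muscle that nucleates actin filaments, stood at 17.7, 8.08 and 16.1 FPKM with the vector and at 15.3, 21.0 and 16.1 FPKM with ARID1B. Vector replicate 2 was the lowest and ARID1B replicate 2 the highest, while the other 4 libraries lay close together. The log2 change of LMOD1 was 0.36 (standard error 0.297, adjusted p = 0.706 from limma), and 0.03 without vector replicate 2.

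The vector group was therefore the more variable one for these genes. The coefficient of variation over 3 libraries was larger with the vector than with ARID1B for 8 of the 10 genes, with a median of 29% against 6.31% (21.1% against 10.3% over all genes tested). The exceptions were ACTA2 and CNN2. Vector replicate 2 was the highest of the 6 libraries for 4 contractile genes (TAGLN, TPM2, MYL9 and CNN1) and the lowest for 2 (CALD1 and LMOD1), beside 39.5% and 37.5% of all genes tested. The 4 highest had a GC content between 55.3% and 60.5%, whereas CALD1 had 41.6% and LMOD1 55.0%. Across 10195 genes (not independent replicates), the Spearman correlation between GC content and the log2 change was -0.55, so base composition moves with the comparison, and its part in the single genes was not tested beyond the GC and length correction. Under that correction no contractile gene passed and their median log2 change was 0.35. MYL9 moved to 0.26, ACTA2 to 0.64, ACTG2 to 0.63, LMOD1 to 0.42 and CALD1 to 0.31.

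**Figure D2:**
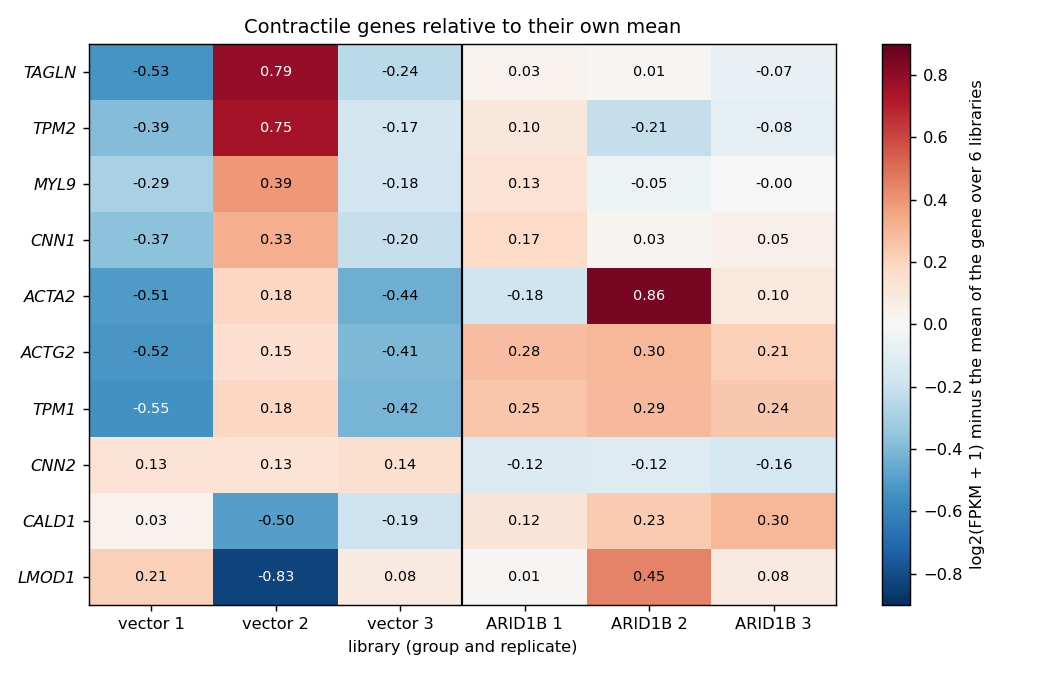
Level of each contractile gene (rows) in each library (columns) as log2(FPKM + 1) minus the mean of that gene over the 6 libraries, with red above and blue below the mean and a line between the groups. Vector replicate 2 reaches 0.79 for TAGLN and -0.83 for LMOD1, ARID1B replicate 2 reaches 0.86 for ACTA2, and CNN2 stays within 0.16 of its mean in all libraries.

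ACTG2 and TPM1 had nearly the same pattern over the 6 libraries, with a Pearson's r of 0.998 on log2(FPKM + 1). TAGLN went with MYL9 (0.964) and TPM2 (0.958), while LMOD1 ran against TPM2 (-0.94). These values describe 6 libraries that include the outlying vector replicate 2, and they carry no test.

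Without vector replicate 2, ACTG2 and TPM1 passed the threshold. In this fit 1.21% of 10435 genes were higher and 1.94% lower. The log2 change of ACTG2 was 0.73 (standard error 0.0864, adjusted p = 0.0299 from limma). That of TPM1 was 0.74 (standard error 0.0817, adjusted p = 0.0293 from limma). With all 6 libraries the standard errors were 0.194 and 0.204. For both genes the library left out was the vector library nearest to the ARID1B group, so its removal enlarges both changes. Vector replicates 1 and 3 stayed, and whether replicate 3 is an independent sample was not tested. Neither ACTG2 nor TPM1 passed when any other single library was left out. Of the 10 genes 9 had a change above 0, among them LMOD1 at only 0.03. The median was 0.33, against -0.0098 over all genes. Several of these genes moved together over the libraries, so they are not separate observations. ACTA2 was at 0.73 (adjusted p = 0.221 from limma), TAGLN at 0.38 (adjusted p = 0.128), CNN1 at 0.37 (adjusted p = 0.0926) and MYL9 at 0.26 (adjusted p = 0.226). CNN2 was the gene below 0, at -0.27 (adjusted p = 0.109). With both libraries numbered 3 left out, no contractile gene passed, and ACTG2, TPM1, CALD1 and CNN2 stood at 0.47, 0.45, 0.41 and -0.25 on the log2 scale.

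**Figure D3:**
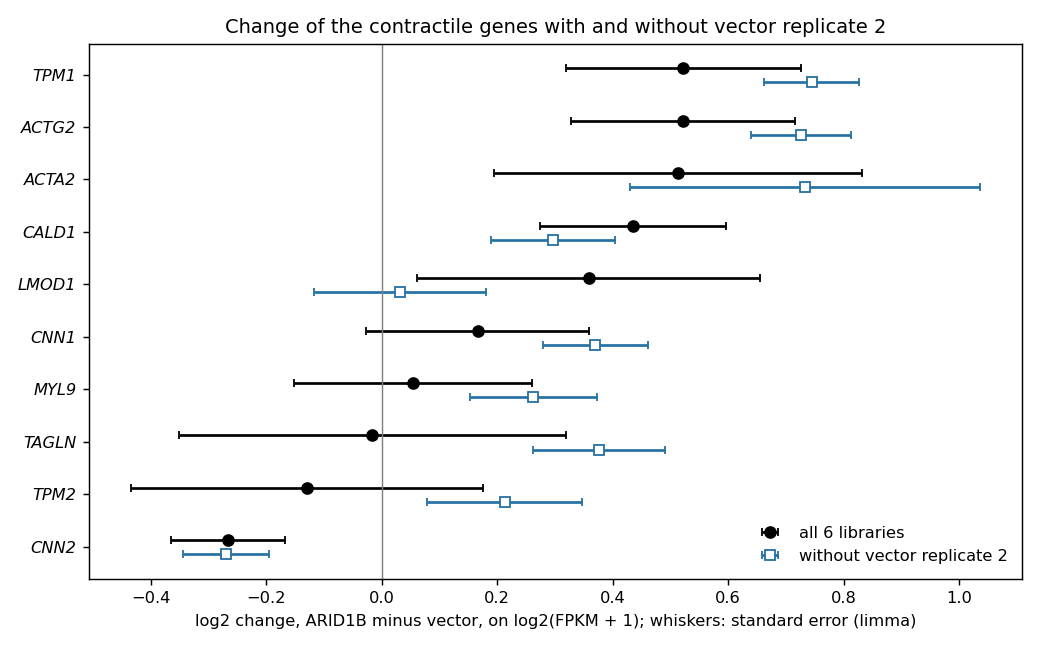
Log2 change between ARID1B and vector libraries of the 10 contractile genes on log2(FPKM + 1), with the standard error from limma, in all 6 libraries (black circles) and without vector replicate 2 (open blue squares). Leaving that library out moves TPM1 to 0.74 and ACTG2 to 0.73, moves TAGLN from -0.016 to 0.38 and leaves CNN2 near -0.27.

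The FPKM values cannot be compared between these genes as deposited, because the length behind them, read from those steps, was 0.448 to 2.78 times the union of the exons of a gene in GENCODE v29. The annotation used for counting is not given in the sources used here, so levels set on the GENCODE v29 union are approximate. This holds most for MYL9, whose recovered length was 1264 bases against a union of 2821, and whose mean of 782 FPKM as deposited was above the 239 FPKM of TPM2. Set on the exon union, the mean level over the 6 libraries was highest for TPM2 (463 FPKM), MYL9 (350 FPKM) and TAGLN (268 FPKM). ACTG2 (130 FPKM), CNN2 (129 FPKM), ACTA2 (116 FPKM), CALD1 (94.3 FPKM) and TPM1 (64.7 FPKM) followed, and CNN1 (22.5 FPKM) and LMOD1 (15.7 FPKM) were lowest. In 7 of the 9 steps of this order the ranges of neighbours over the libraries overlapped, and the exceptions were the steps from TAGLN to ACTG2 and from TPM1 to CNN1.

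Other genes of the contractile program did not pass either (adjusted p from limma), and nominal counts are given for those lists, meaning genes whose unadjusted limma p was under 0.05. Over all genes tested 9.44% were higher and 11.1% lower without overlap, and the nominal shares were 4.64% higher and 5.94% lower. Of 10 tested genes of a list of other smooth muscle differentiation genes, none passed, with 1 higher and 2 lower without overlap a median log2 change of -0.04 and nominal counts of 0 higher and 1 lower. TGFB1I1, the adhesion adaptor Hic-5, was at -0.39 (adjusted p = 0.349 from limma) and NEXN, an actin-binding protein of adhesions, at 0.29 (adjusted p = 0.512). In the same list MYH11, the smooth muscle myosin heavy chain and the defining marker of mature smooth muscle, stood at no more than 0.043 FPKM in any library, DES, the intermediate filament desmin, at no more than 1.17 FPKM, and KCNMB1 was listed at 0 in all 6 (chosen after their values were seen). Other genes of the list were well expressed. MYL6 stood at 61.1 to 145 FPKM, HSPB6 at 47.6 to 114 FPKM and MYLK at 7.63 to 43.2 FPKM over the libraries (also chosen after their values were seen). Of the 20 genes listed, 8 stayed under 1 FPKM in every library.

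Of 16 general actomyosin genes, all tested, none passed, and the median was 0.06. Without overlap 4 were higher and 0 lower, beside 9.44% and 11.1% of all genes tested. Nominal counts were 3 higher and 0 lower, beside 4.64% and 5.94%. LIMA1, which stabilizes stress fibers, was at 0.51 (adjusted p = 0.390 from limma). SRF, named after its values were seen, stood at 14.1, 17.4 and 15.0 FPKM with the vector and at 14.6, 15.0 and 14.4 FPKM with ARID1B, and MYOCD, which encodes myocardin, at no more than 0.685 FPKM in any library.

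Of 16 tested focal adhesion and stress fiber anchors none passed with all libraries, and the median was 0.19. Without overlap 4 were higher and 1 lower, and nominal counts were 2 higher and 0 lower. Beside these counts and those of the next lists stand 9.44% and 11.1% of all genes without overlap, and 4.64% and 5.94% nominally. FHL2, a LIM protein of stress fibers, stood at 16.6, 17.7 and 16.8 FPKM with the vector and at 23.8, 24.3 and 23.3 FPKM with ARID1B, which is 0.46 higher on the log2 scale (adjusted p = 0.285 from limma). PDLIM5, another LIM protein bound to actin, was at 0.58 (adjusted p = 0.301 from limma), and both passed without vector replicate 2 (adjusted p = 0.0399 for FHL2 and 0.0299 for PDLIM5). Of 16 matrix and TGF-beta products of myofibroblasts none passed, with 4 higher and 1 lower without overlap a median of 0.35 (0.10 without vector replicate 2) and nominal counts of 3 higher and 1 lower. LOX, which crosslinks collagen, was at 1.03 (adjusted p = 0.165 from limma) and SPARC, a matrix glycoprotein, at 0.61 (adjusted p = 0.285). Without vector replicate 2, LOX, SPARC and IGFBP3 of this list passed, and 0 genes of the smooth muscle and actomyosin lists did. In that fit 1.21% of all genes were higher and 1.94% lower. The 12 housekeeping genes had a median of -0.09, none passed, and 0 were higher and 3 lower without overlap, with nominal counts of 0 higher and 2 lower. The latter were RPLP0 at -0.39 (adjusted p = 0.349 from limma) and RPS14 at -0.34 (adjusted p = 0.449).

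**Figure D4:**
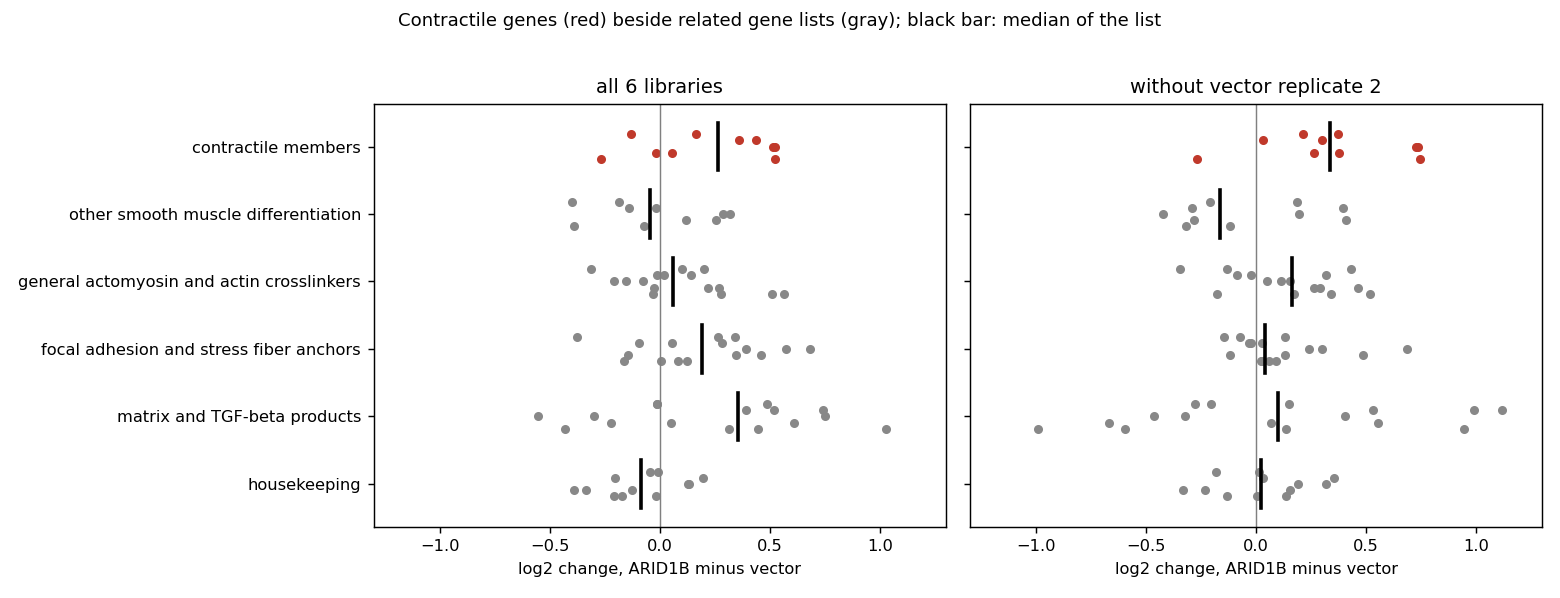
Log2 change between ARID1B and vector libraries of each tested gene (points, spread vertically for visibility) of the contractile genes (red) and 5 other lists (gray), with all libraries (left) and without vector replicate 2 (right), and the median of each list (black bar). The median of the contractile genes is 0.26 with all libraries and 0.33 without vector replicate 2, and that of the matrix list 0.35 and 0.10.

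The 5 genes most like ACTA2 over the 6 libraries, among 1422 genes that reached a mean of 5 FPKM and at least 2-fold between the lowest and highest library, were MT-CYB (Pearson's r 0.998), DUSP1 (0.994), hsa-mir-6723 (0.993), ADAMTS1 (0.985) and CYR61 (0.985). Of the contractile genes, which are few and were not filtered in this way, TPM1 came nearest at 0.767. In all 5, as in ACTA2, ARID1B replicate 2 was the highest library, which their choice by likeness to ACTA2 makes likely. DUSP1, an early response phosphatase, stood there at 162 FPKM against 26.1 to 68.1 FPKM in the other 5 libraries. For CYR61, a matricellular protein, the values were 446 FPKM against 143 to 255 FPKM. Likeness is a description over the same 6 libraries and carries no test. Because the 5 are the most alike of 1422 genes, they do not set ACTA2 apart from the contractile genes.

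The cells expressed fibroblast markers throughout. The summed level of 12 lung fibroblast markers, 11 of them tested, ran from 1961 to 2610 FPKM with the vector and from 1878 to 2594 FPKM with ARID1B, and none of these genes passed the test with all libraries (nominal counts 0 higher and 1 lower). Single markers differed more than the sum. In vector replicates 1, 2 and 3 COL3A1 stood at 282, 38.3 and 243 FPKM, and PDGFRA at 36.0, 8.37 and 30.8 FPKM. Within the vector group VIM, THY1 and S100A4 were highest in replicate 2, and the other markers of this list were lowest there. Of the 11 tested, 8 had a change below 0, and 0 were higher and 2 lower without overlap. Over all genes tested 47.6% lay above 0, and 9.44% were higher and 11.1% lower without overlap (nominally 4.64% and 5.94%). S100A4, a calcium-binding protein of fibroblasts, was at -0.74 with all libraries (adjusted p = 0.232 from limma). It passed as lower without vector replicate 2, at -0.69 (adjusted p = 0.0472 from limma), as did 1.94% of all genes. The part of these shifts in the contractile genes was not tested. Of 8 smooth muscle and pericyte markers 5 were tested (nominal counts 0 higher and 0 lower), with a sum of 34.5 to 43.5 FPKM with the vector and 31.8 to 47.4 FPKM with ARID1B. Markers of skeletal and cardiac muscle summed to at most 0.307 FPKM and those of blood to at most 0.0819 FPKM in any library. Epithelial markers summed to 4.79 to 15.8 FPKM with the vector and 4.17 to 6.39 FPKM with ARID1B, nearly all of it KRT19, which was highest in vector replicate 2 at 14.3 FPKM. KRT19 was the 1 epithelial marker tested, at -0.52 (adjusted p = 0.672 from limma). Endothelial markers summed to 0.903 to 3.68 FPKM with the vector and 1.83 to 3.64 FPKM with ARID1B, mostly TEK, the 1 marker tested (0.13, adjusted p = 0.902 from limma), with CDH5 listed at 0 in all libraries. All these sums add deposited FPKM of different genes. They, and the share of a gene in them, therefore also depend on the gene lengths behind the values.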

How the data were processed

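RNA-seq libraries of IMR90 cells (3 with the empty vector, 3 with ARID1B cDNA) were grouped by their labels. The deposited table holds FPKM of 57232 genes, made by the authors from their reads. The submitters' processing notes list hg19, HTSeq 0.5.3p9, TopHat2 2.0.11 and DESeq2, without roles. The 10 genes, the gene lists and the tests were chosen with earlier results of these data known. Named genes were the 10 genes, up to 4 members past the threshold or the 2 with the smallest p from each list, and the 5 genes most like ACTA2.

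Library totals were recovered from genes with 1 transcript in GENCODE v29 (GRCh38), as the total that made FPKM times length whole reads. The smallest length giving whole reads within 0.002 in all 6 libraries gave the reads of a gene, which are too few where they share a divisor. The 10416 genes whose mean reached 1 FPKM were tested with limma 3.58.1 (R 4.3.3, variance trend) on log2(FPKM + 1), which understates changes at low levels, with Benjamini-Hochberg adjustment at 0.05. Recovery and test were checked on simulated data. Python 3.11.15 was used for the rest. Alternatives were quantile normalization, median-ratio rescaling, a pseudocount of 0.1, a minimum mean of 5 FPKM or none, no trend, a replicate block, a correction by splines for GC and length (5 degrees of freedom for each, with values for 97.9% of genes), the last pair together, each library left out, and both libraries numbered 3 left out. Some results, among them those of 1 gene list, are not reported here.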

Additional observations from a re-analysis of the deposited data

How the results depend on the processing

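Of 160 values of single contractile genes under 16 alternatives, 147 kept their direction and their side of the threshold, 2 passed it and 11 turned. Those that passed were ACTG2 (0.73) and TPM1 (0.74) without vector replicate 2. TAGLN (-0.016) turned to 0.11 under quantile normalization, 0.11 after the GC and length correction and 0.11 with the replicate block and that correction, and ran from -0.28 to 0.38 with single libraries left out. TPM2 (-0.13) turned to 0.054 with the GC and length correction, with or without the replicate block, and ran from -0.36 to 0.21 with single libraries left out. MYL9 (0.055) turned to -0.0030 without both libraries numbered 3 and ran from -0.079 to 0.26 with single libraries left out. The number of contractile genes past the threshold was 0 in every setting but 1, with 0 to 2 over the settings that left out a single library (2 without vector replicate 2). For the related lists it ran from 0 to 5, the 5 also without vector replicate 2. The median log2 change of the contractile genes was 0.26 and ran from 0.20 to 0.35 over the alternatives. It moved by less than 0.21 in all settings. That value is the SD, within groups, of the median log2 level of these genes in each library, a spread of levels and not of the change.

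Over all genes tested 3 passed, against 0 with no filter, 1 with median-ratio rescaling, 5 with the GC and length correction, 0 without both libraries numbered 3 and 0 to 328 with single libraries left out (328 without vector replicate 2, 0 without any other). The replicate block left 0 genes past the threshold, also with the GC and length correction. Deviations of same-numbered libraries from their group means correlated at -0.46, -0.43 and -0.17 for replicates 1, 2 and 3. The means of 3 libraries include the outlying vector replicate 2, so these values cannot show whether the numbers pair the libraries. The block is given for completeness. The cause of these shifts was not tested. With 3 libraries per group the precision is limited, and counting error was not estimated apart from the spread between libraries.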

Other observations

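The length by which the deposited FPKM values were divided can be read from their steps, and it bears on any comparison between genes. Among 9295 tested genes whose exon union and sum of distinct exons differ in GENCODE v29, the recovered length equalled the sum of distinct exons for 3663 and the exon union for 13. For the contractile genes it equalled the sum of distinct exons for TAGLN (8847 bases, against an exon union of 3917) and ACTG2 (5365 bases, against 3811). Overlapping exons of different transcripts are counted more than once in such a sum. CNN2 had a length of 10116 bases against an exon union of 3645, and TPM1 one of 20386 against 12876, while LMOD1 had 3970 against 3971. Ratios of FPKM between libraries are not touched by this, because the length of a gene is the same in all of them. The log2 changes on log2(FPKM + 1) depend on it slightly, most at low levels. With a pseudocount of 0.1 the change of CNN1 was 0.19 in place of 0.17, and that of LMOD1 0.38 in place of 0.36.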
